A study of Homo sapiens with 9 samples.

Results

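The effect of a high dose of retinoic acid (RA) on the transcriptome of NB4 cells was read from 1 RNA sequencing library of cells kept for 24 h in RA at 1 uM, set against 1 library of cells kept for 24 h in DMSO, the vehicle. These are 2 of the 9 libraries of a study of LSD1, a histone demethylase also called KDM1A. The others used here are 1 library each of RA at 0.01 uM, of MC_2580 (labelled as an LSD1 inhibitor, with no dose given) and of MC_2580 with RA at 0.01 uM, also for 24 h, and 2 libraries each of untreated LSD1 KO and WT cells. The members are all rows of the authors' treatment table that pair the RA 1 uM library with the DMSO library. Of 35856 rows, 775 with a failed status were dropped and 35081 were kept. NB4 is an established human acute promyelocytic leukaemia line, grown from a leukaemia whose cells are arrested at the promyelocyte stage. The labels do not name the isomer of RA.

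RA acts through nuclear receptors, RARA, RARB and RARG, which sit on DNA as partners of an RXR protein. Without RA they hold co-repressors at their target genes, and with RA these are exchanged for co-activators. NB4 cells carry the PML-RARA fusion, which keeps such genes repressed at ordinary RA levels. High RA is known to release that block and to let promyelocytes mature along the neutrophil path, with degradation of the fusion protein. Neutrophil maturation is marked by a sequence of granule proteins, by the NADPH oxidase that makes superoxide, by adhesion molecules and by exit from the cell cycle.

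Levels are FPKM, fragment counts scaled to transcript length and library size, as the authors deposited them. Differences are log2((RA 1 uM + 1)/(DMSO + 1)), called log2 differences here. A gene was compared if it was a protein-coding gene with a single locus and had at least 1 FPKM in either library, which left 9854 genes. With 1 library a side no test, standard error or p-value can be had. A gene is therefore called higher or lower by size alone, at 2-fold on the FPKM + 1 scale. As a measure of how far like libraries differ, each gene's largest log2 difference between WT 1 and WT 2 or between KO 1 and KO 2 is used. That set was sequenced without these treatments, and the labels do not say whether its replicates are separate cultures. In bulk RNA, fewer cells of a type and less RNA per cell cannot be told apart.

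Both libraries detected a like number of loci, 13012 at 1 FPKM or more with RA 1 uM and 13033 with DMSO. No count of reads per library was at hand. At 628 short loci above 0 in both libraries, the most common ratio of FPKM was taken as a measure of relative depth. If such loci held equal reads, 1 FPKM stood for 0.87 times as many reads with RA 1 uM as with DMSO. The labelled cell type was matched by its markers in part. CD33, a myeloid surface receptor, stood at 44.3 FPKM with RA 1 uM and 31.97 FPKM with DMSO. MPO, the peroxidase of promyelocyte granules, was among the most abundant protein-coding transcripts at 2454 FPKM with RA 1 uM and 5301 FPKM with DMSO. ELANE, neutrophil elastase, and KIT, a progenitor receptor, were under 1 FPKM in both libraries, and CD34, a stem cell antigen, was listed at 0 in both. Of 9 compared promyelocyte markers 2 (22.2%) were higher and 4 (44.4%) were lower with RA 1 uM, against 6.53% and 2.72% of all compared genes. ANPEP, the CD13 antigen, was among the lower ones, with a log2 difference of -1.26. The median of these markers was -0.58, against -0.19 (WT 1 minus WT 2) and -0.21 (KO 1 minus KO 2) between like libraries. KDM1A itself stood at 51.0 FPKM with RA 1 uM and 69.9 FPKM with DMSO, a log2 difference of -0.45, against 0.41 between like libraries.

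More genes were higher with RA than lower, and the larger the difference the more one-sided it was. At 2-fold 643 genes (6.53% of those compared) were higher with RA 1 uM and 268 (2.72%) were lower. The shares of called genes in each list below can be set beside these. At 4-fold the counts were 206 higher (2.09%) and 32 lower (0.325%). At 16-fold 48 were higher and 1 was lower, and at 64-fold 14 were higher and 0 were lower. Over all compared genes the median log2 difference was -0.03, a value that the scaling of FPKM to library size largely sets. For comparison, 2-fold in either direction was passed by 9.24% of genes between RA 1 uM and DMSO, by 3.87% between WT 1 and WT 2 and by 3.43% between KO 1 and KO 2. Of 640 higher genes that also had values in the knockout table, 617 differed by more than their own largest like-library difference. Of 268 lower genes, 246 did. Over all compared genes with such values, 3823 of 9823 did. The called genes were picked for a large difference, so a high share among them follows in part from that choice. Just inside the threshold lay DEFA6, called higher at 1.36 FPKM with RA 1 uM and 0.181 FPKM with DMSO, and CTH, called lower at 0.945 FPKM with RA 1 uM and 2.89 FPKM with DMSO. Just outside it lay CDS2, with 16.3 FPKM with RA 1 uM and 7.65 FPKM with DMSO, and PMP22, with 0.394 FPKM with RA 1 uM and 1.79 FPKM with DMSO. In the authors' deposited table, which tests 1 library against another, 487 of the compared genes (4.94%) were called higher with RA 1 uM and 196 (1.99%) lower.

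**Figure D1:**
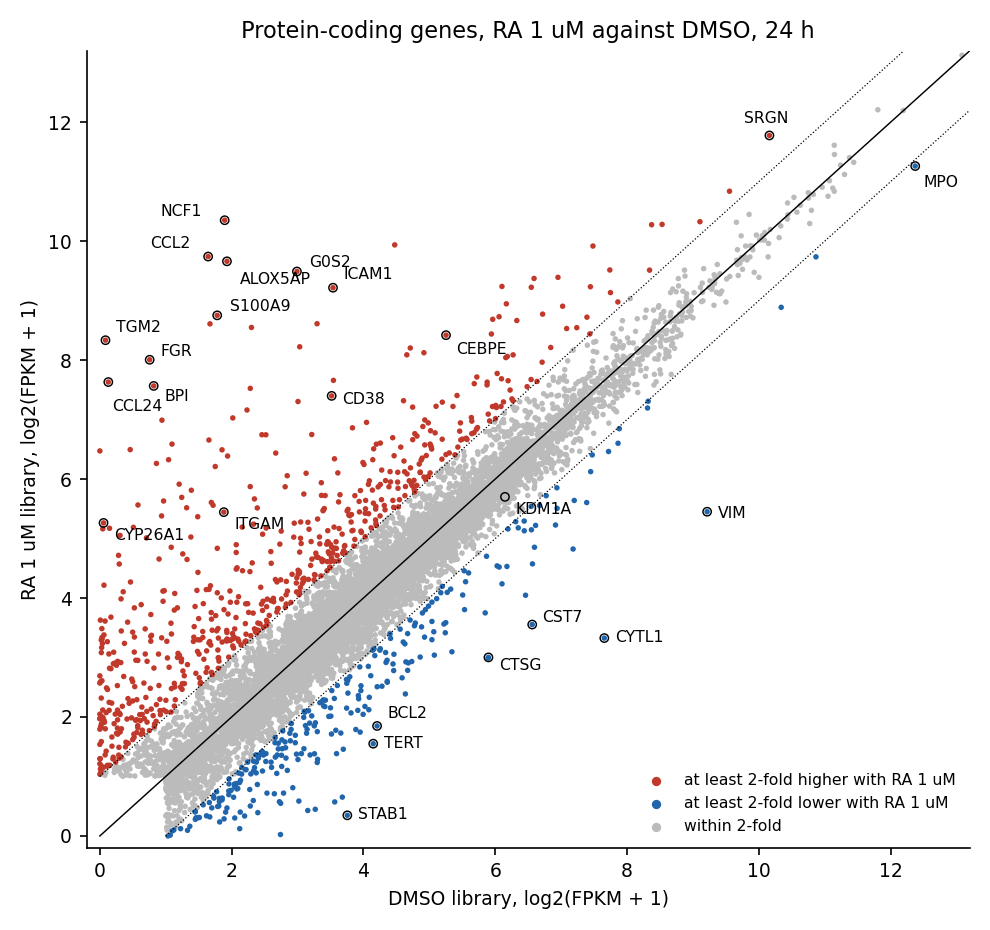
Level of each compared protein-coding gene in the RA 1 uM library (vertical axis) and in the DMSO library (horizontal axis), both as log2(FPKM + 1), 1 library each. The solid line marks equal levels and the dotted lines 2-fold, the 643 red genes are higher and the 268 blue genes lower with RA 1 uM, and circled genes are named in the text. The red genes reach much farther from the line than the blue ones.

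Several genes of RA metabolism and 2 of the RA receptor genes were higher with RA 1 uM. Of 20 compared genes of retinoid metabolism, binding and receptors, 10 (50.0%) were higher and 0 were lower with RA 1 uM. Their median log2 difference was 1.14, against -0.03 over all compared genes. Between like libraries the same genes had medians of 0.05 (WT 1 minus WT 2) and 0.04 (KO 1 minus KO 2), and medians of other lists between like libraries are given below in that order. TGM2, a transglutaminase long known as an RA-induced protein of myeloid cells, had 322 FPKM with RA 1 uM and 0.061 FPKM with DMSO, a log2 difference of 8.25. It lies at chr20:36190280-36227114 of hg18, the build used by the authors' table. The enzymes that clear RA were near 0 in DMSO. CYP26A1 (chr10:94823222-94827637), the cytochrome P450 that hydroxylates RA, had 37.4 FPKM with RA 1 uM and 0.040 FPKM with DMSO. CYP26B1, a second RA hydroxylase, had 17.6 FPKM with RA 1 uM and 0.044 FPKM with DMSO. DHRS3, which reduces retinaldehyde back to retinol, had 95.2 FPKM with RA 1 uM and 1.14 FPKM with DMSO. The retinol dehydrogenase gene DHRS9, which works in the opposite direction, already had 13.3 FPKM with DMSO and had 115 FPKM with RA 1 uM. STRA6, the membrane receptor that takes up retinol, had 3.70 FPKM with RA 1 uM and 0.133 FPKM with DMSO, a call that is lost with a pseudocount of 5 FPKM (log2 difference 0.76).

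The receptors themselves differed from each other. RARB had 7.51 FPKM with RA 1 uM and 0.156 FPKM with DMSO, and RARG had 2.17 FPKM with RA 1 uM and 0.135 FPKM with DMSO. The call of RARG is lost with a pseudocount of 5 FPKM, at 0.48. RARA, the receptor that takes part in the fusion, had 13.7 FPKM with RA 1 uM and 11.5 FPKM with DMSO, a log2 difference of 0.23 against 0.34 between like libraries. PML, its fusion partner and a nuclear body protein, had 33.3 FPKM with RA 1 uM and 18.7 FPKM with DMSO, below 2-fold. A gene-level value does not separate the fusion from the normal RARA and PML transcripts. The partner RXRB, at 22.8 FPKM with RA 1 uM and 22.4 FPKM with DMSO, and the co-repressor NCOR1 were within 2-fold. PLAAT4, a phospholipid acyltransferase named for its RA response, had 40.6 FPKM with RA 1 uM and 0.914 FPKM with DMSO. The retinaldehyde dehydrogenase ALDH1A1, the binding protein CRABP1, a further RA hydroxylase, CYP26C1, and the acyltransferase LRAT were listed at 0 in both libraries.

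RAR and RXR bind pairs of a 6-base half-site, and the promoters of CYP26A1 and RARB are the textbook case of a pair spaced by 5 bases. Windows from 250 bases before to 50 bases after each gene's start, from RefSeq on GRCh38.p14, were searched on both strands for 2 half-sites in the same direction, spaced 1, 2 or 5 bases apart. The half-sites searched were AGGTCA and its variant GGGTCA, together with the variant AGTTCA and the variant GGTTCA. The 2 windows below are shown because they hold such a pair in genes of RA clearance and RA reception. CYP26A1 had 2 windows and RARB had 4, of which 1 each held a pair, and the windows of CYP26B1, DHRS3, DHRS9, RARA, RARG and STRA6 held none. Letters run 5′ to 3′ along the gene, and capitals mark the half-sites.
CYP26A1: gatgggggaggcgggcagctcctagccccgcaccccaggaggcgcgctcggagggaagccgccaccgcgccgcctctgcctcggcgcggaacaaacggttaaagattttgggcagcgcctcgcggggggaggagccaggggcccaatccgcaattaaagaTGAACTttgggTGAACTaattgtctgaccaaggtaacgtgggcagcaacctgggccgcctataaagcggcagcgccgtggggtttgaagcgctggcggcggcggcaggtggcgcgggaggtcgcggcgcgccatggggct
RARB: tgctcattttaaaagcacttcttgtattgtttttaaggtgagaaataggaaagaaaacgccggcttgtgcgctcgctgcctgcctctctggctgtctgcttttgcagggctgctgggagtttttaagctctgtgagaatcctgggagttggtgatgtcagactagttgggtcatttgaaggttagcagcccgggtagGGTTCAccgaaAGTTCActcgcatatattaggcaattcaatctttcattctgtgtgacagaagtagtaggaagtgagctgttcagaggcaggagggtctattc

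The CYP26A1 window is chr10:93073643-93073942 on the plus strand, and its pair, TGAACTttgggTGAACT, reads as 2 copies of AGTTCA on the strand opposite to the gene. The RARB window is chr3:25428013-25428312 on the plus strand, and its pair, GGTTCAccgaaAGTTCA, lies on the strand of the gene. Such pairs were rare. Of the 643 higher genes 487 had a window, and 4 of these (0.821%) held a pair, all with a spacing of 5 bases. Among all compared genes with a window, 30 of 8181 (0.367%) held a pair, and 8 (0.0978%) held one with a spacing of 5 bases. Among the lower genes it was 0 of 194, and over all genes with a listed promoter it was 87 of 27305 (0.319%). The other higher genes with a pair were BATF2, with 2.85 FPKM with RA 1 uM and 0.045 FPKM with DMSO, and CYB5R2, with 1.25 FPKM with RA 1 uM and 0.075 FPKM with DMSO, both chosen for naming after the search. The other 4 compared genes with a spacing of 5 bases, PANK2, CFLAR, PHF8 and HROB, were within 2-fold. A match of letters is a description of the window and not a bound site. TGM2 and PLAAT4 had no window in the table.

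Genes of the enzyme of the neutrophil burst were higher. The NADPH oxidase joins a membrane cytochrome, made of CYBB and CYBA, with cytosolic organisers and a RAC protein. Of 8 compared genes of that complex 5 (62.5%) were higher and 0 were lower. Their median log2 difference was 1.47, against 0.21 and 0.04 between like libraries. NCF1, the p47 organiser (chr7:73826245-73841594), had 1305 FPKM with RA 1 uM and 2.72 FPKM with DMSO, a log2 difference of 8.46. That was the largest of all compared genes at a pseudocount of 1 FPKM, whereas at 0.1 FPKM it was 8.86 and below the 10.97 of TGM2, the 10.00 of CCL24 and the 9.78 of PTGES. NCF1 has near-identical pseudogene copies, and the way the authors' counting divided reads among them is not given in the sources used here, so its level is uncertain. CYBB, the catalytic subunit, had 201 FPKM with RA 1 uM and 10.7 FPKM with DMSO. CYBA, its membrane partner, had 601 FPKM with RA 1 uM and 173 FPKM with DMSO. RAC2, the haematopoietic RAC protein, had 436 FPKM with RA 1 uM and 104 FPKM with DMSO. The widely expressed RAC1 was within 2-fold at 98.9 FPKM with RA 1 uM and 107 FPKM with DMSO. NCF4, the p40 subunit, had 68.2 FPKM with RA 1 uM and 35.2 FPKM with DMSO, a log2 difference of 0.93.

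Granule genes split. Primary granules form in promyelocytes, and of 16 compared genes 7 (43.75%) were higher and 5 (31.25%) were lower with RA 1 uM. The higher ones include antimicrobial peptides. DEFA4, a defensin, had 389 FPKM with RA 1 uM and 2.18 FPKM with DMSO. BPI, which binds bacterial lipopolysaccharide, had 188 FPKM with RA 1 uM and 0.762 FPKM with DMSO. DEFA3 had 979 FPKM with RA 1 uM and 21.2 FPKM with DMSO, but DEFA1 and DEFA3 are near-identical and their split is uncertain. PRTN3, proteinase 3, had 966 FPKM with RA 1 uM and 178 FPKM with DMSO, a log2 difference of 2.43 against 1.77 between like libraries. SRGN, the proteoglycan core that packs granule proteins, had 3506 FPKM with RA 1 uM and 1143 FPKM with DMSO. SERPINB1, an inhibitor of granule proteases, had 294 FPKM with RA 1 uM and 25.2 FPKM with DMSO.

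The lower primary granule genes were MPO, above, with a log2 difference of -1.11, and 4 more. CTSG, the protease cathepsin G, had 7.01 FPKM with RA 1 uM and 58.6 FPKM with DMSO. CST7, a cystatin that inhibits cathepsins, had 10.7 FPKM with RA 1 uM and 93.4 FPKM with DMSO. MS4A3, a membrane protein of granulocyte precursors, had 22.3 FPKM with RA 1 uM and 64.3 FPKM with DMSO. LYZ, lysozyme, had 12.98 FPKM with RA 1 uM and 45.3 FPKM with DMSO, a log2 difference no larger in size, at 1.73, than that between like libraries. AZU1, azurocidin, was within 2-fold. The later, secondary granules were hardly represented. Of 24 genes, 13 were under 1 FPKM in both libraries, among them LTF, lactoferrin, and LCN2. Of the 11 compared genes 4 (36.4%) were higher and 1 (9.09%) was lower. The higher ones were CHI3L1, CEACAM1, ORM1 and CYBB, which is also counted in the oxidase list, and the lower one was PTX3. With a pseudocount of 5 FPKM the calls of CEACAM1, ORM1 and PTX3 are lost, at 0.84, 0.65 and -0.28. CHI3L1, a chitinase-like granule protein, had 36.8 FPKM with RA 1 uM and 4.03 FPKM with DMSO, and the gelatinase MMP9 had 28.5 FPKM with RA 1 uM and 28.9 FPKM with DMSO. Of the S100 family of calcium-binding proteins 4 of 10 (40.0%) were higher and 0 were lower. S100A9 had 430.1 FPKM with RA 1 uM and 2.44 FPKM with DMSO, and its partner in calprotectin, S100A8, had 126 FPKM with RA 1 uM and 0.921 FPKM with DMSO, whereas S100A4 and S100A11 were within 2-fold.

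**Figure D2:**
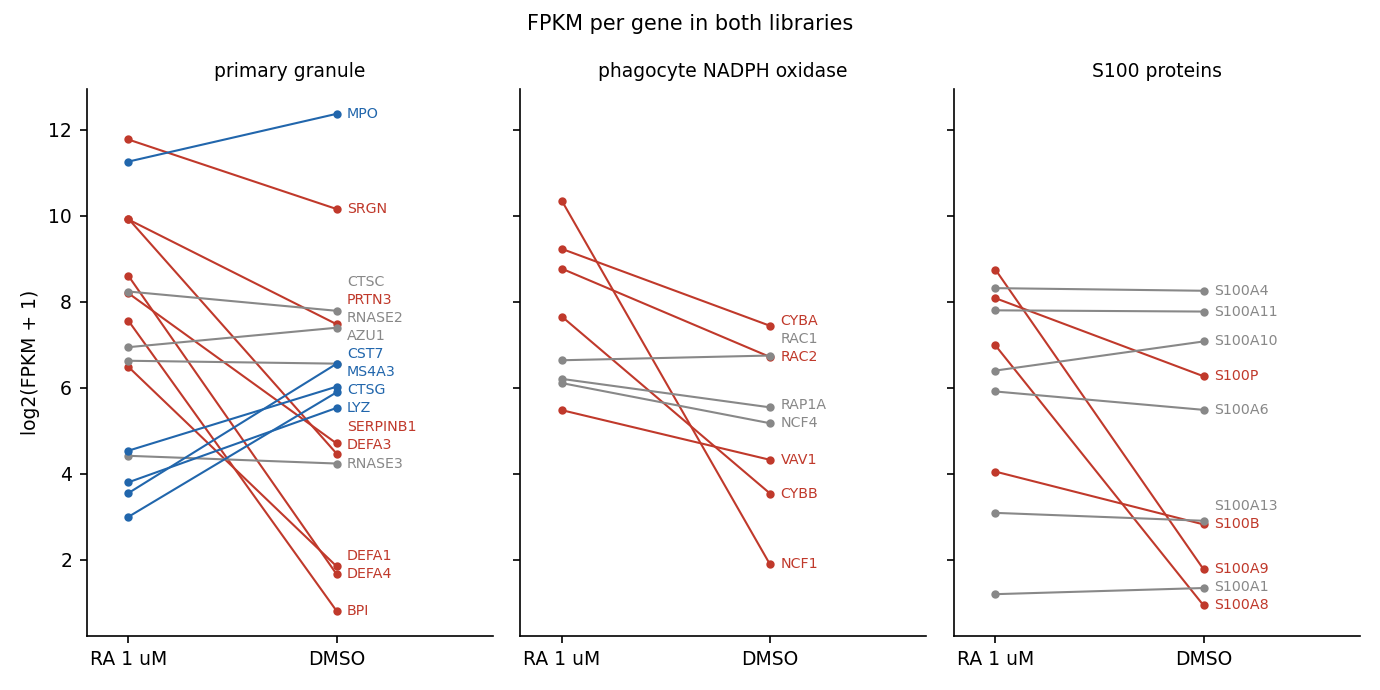
Level of each compared primary granule, NADPH oxidase and S100 gene in the RA 1 uM library (left point) and the DMSO library (right point), as log2(FPKM + 1), 1 library each. Red lines are genes at least 2-fold higher with RA 1 uM, blue lines genes at least 2-fold lower, grey lines genes within 2-fold. The primary granule panel holds 7 red and 5 blue lines, and the other panels hold no blue line.

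The called surface receptors and adhesion molecules of granulocytes were all on the higher side. Of 43 compared genes 21 (48.8%) were higher with RA 1 uM and 0 were lower. Their median log2 difference was 0.98, against 0.30 and 0.32 between like libraries. CD38, an ectoenzyme used as a marker of RA response in myeloid cells, had 168 FPKM with RA 1 uM and 10.5 FPKM with DMSO. ITGAM, the CD11b chain that marks myeloid maturation, had 42.5 FPKM with RA 1 uM and 2.68 FPKM with DMSO, a log2 difference of 3.56 against 1.7996 between like libraries. Its sister chain ITGAX had 44.8 FPKM with RA 1 uM and 1.49 FPKM with DMSO, and their shared partner ITGB2 had 346 FPKM with RA 1 uM and 60.4 FPKM with DMSO. ICAM1, an integrin ligand, had 594 FPKM with RA 1 uM and 10.6 FPKM with DMSO, and CD52, a small anchored glycoprotein, had 373 FPKM with RA 1 uM and 3.93 FPKM with DMSO. For these last genes like libraries differed by up to 2.10 and 2.42 on the log2 scale, less than the log2 differences of 5.68 and 6.25 with RA 1 uM. CXCR2, the neutrophil receptor for CXCL8, had 5.22 FPKM with RA 1 uM and 0.399 FPKM with DMSO, a call lost at 0.92 with a pseudocount of 5 FPKM. The formyl peptide receptors FPR1 and FPR2, the Fc receptor FCGR3B and CEACAM8 stayed under 1 FPKM in both libraries, and CSF3R had a failed status.

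Several chemokines, and enzymes or partners of lipid mediator synthesis, were higher. CCL2, the main monocyte-attracting chemokine, had 854 FPKM with RA 1 uM and 2.12 FPKM with DMSO. CCL24, an eosinophil-attracting chemokine, had 197 FPKM with RA 1 uM and 0.093 FPKM with DMSO. CXCL8, which attracts neutrophils, had 103 FPKM with RA 1 uM and 20.8 FPKM with DMSO. Within the list of chemokines, the IL1 system and NF-kB, 12 of 28 compared genes (42.9%) were higher and 3 (10.7%) were lower. The lower ones were TNF, with 22.8 FPKM with RA 1 uM and 93.6 FPKM with DMSO, the IL1 receptor antagonist IL1RN, with 0.088 FPKM with RA 1 uM and 3.35 FPKM with DMSO, and LTB, a lymphotoxin. With a pseudocount of 5 FPKM the calls of IL1RN and LTB are lost, at -0.72 and -0.71. Of 10 compared genes for leukotrienes and prostaglandins 4 (40.0%) were higher and 0 were lower. ALOX5AP, which presents arachidonic acid to the leukotriene-forming lipoxygenase, had 808 FPKM with RA 1 uM and 2.81 FPKM with DMSO. PTGES, the inducible prostaglandin E synthase, had 87.8 FPKM with RA 1 uM and was listed at 0 with DMSO. PTGS1, a cyclooxygenase, had 17.5 FPKM with RA 1 uM and 2.20 FPKM with DMSO, and the inducible cyclooxygenase PTGS2 was listed at 0 in both.

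Most compared interferon response genes were higher. Of 41 compared genes 28 (68.3%) were higher with RA 1 uM and 1 (2.44%) was lower, with a median log2 difference of 1.34. Between like libraries the median was 0.81 for WT 1 minus WT 2 and 0.30 for KO 1 minus KO 2, so this list also differs between untreated libraries. IRF1, a transcription factor of interferon responses, had 123 FPKM with RA 1 uM and 15.5 FPKM with DMSO. IFI30, a lysosomal thiol reductase, had 31.2 FPKM with RA 1 uM and 0.633 FPKM with DMSO. OAS1, which senses double-stranded RNA, had 14.4 FPKM with RA 1 uM and 0.944 FPKM with DMSO. The ubiquitin-like protein ISG15 had 41.7 FPKM with RA 1 uM and 15.9 FPKM with DMSO, and the enzymes that attach it, UBA7 and UBE2L6, had 23.0 and 100.1 FPKM with RA 1 uM, against 5.06 and 25.9 FPKM with DMSO. The 1 lower gene, HERC5, is the ligase of that same pathway, with 2.06 FPKM with RA 1 uM and 5.79 FPKM with DMSO, and its call is lost at -0.61 with a pseudocount of 5 FPKM. Other familiar members of the response, MX1, RSAD2, IFI44 and IFI44L, were under 1 FPKM in both libraries.

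Among myeloid transcription factors 14 of 51 compared genes (27.5%) were higher and 4 (7.84%) were lower. The median log2 difference of that list was 0.39, against 0.24 and 0.04 between like libraries. CEBPE, the factor of late granulocyte maturation, had 341 FPKM with RA 1 uM and 37.1 FPKM with DMSO. CEBPB, used in stress granulopoiesis, had 85.6 FPKM with RA 1 uM and 5.36 FPKM with DMSO. SPI1, the PU.1 master factor of myeloid cells, had 262 FPKM with RA 1 uM and 70.5 FPKM with DMSO. The inhibitors of basic helix-loop-helix factors ID1 and ID2 had 22.8 and 40.3 FPKM with RA 1 uM, against 0.226 and 1.799 FPKM with DMSO. HIC1, a zinc finger repressor, had 35.0 FPKM with RA 1 uM and 0.107 FPKM with DMSO. The lower genes were BATF3, KLF6, KLF4 and JUN. With a pseudocount of 5 FPKM the calls of KLF6, KLF4 and JUN are lost, at -0.81, -0.36 and -0.73. Among genes of the LSD1 complexes, 2 of 21 (9.52%) were higher and 1 (4.76%) was lower, near the 6.53% and 2.72% over all compared genes, and the median was -0.04. These were GFI1B, a repressor that recruits LSD1, at 8.83 FPKM with RA 1 uM and 1.87 FPKM with DMSO, GSE1 at 43.1 FPKM with RA 1 uM and 12.5 FPKM with DMSO, and the lower co-repressor RCOR2, at 1.36 FPKM with RA 1 uM and 5.05 FPKM with DMSO, whose call is lost at -0.66 with a pseudocount of 5 FPKM.

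**Figure D3:**
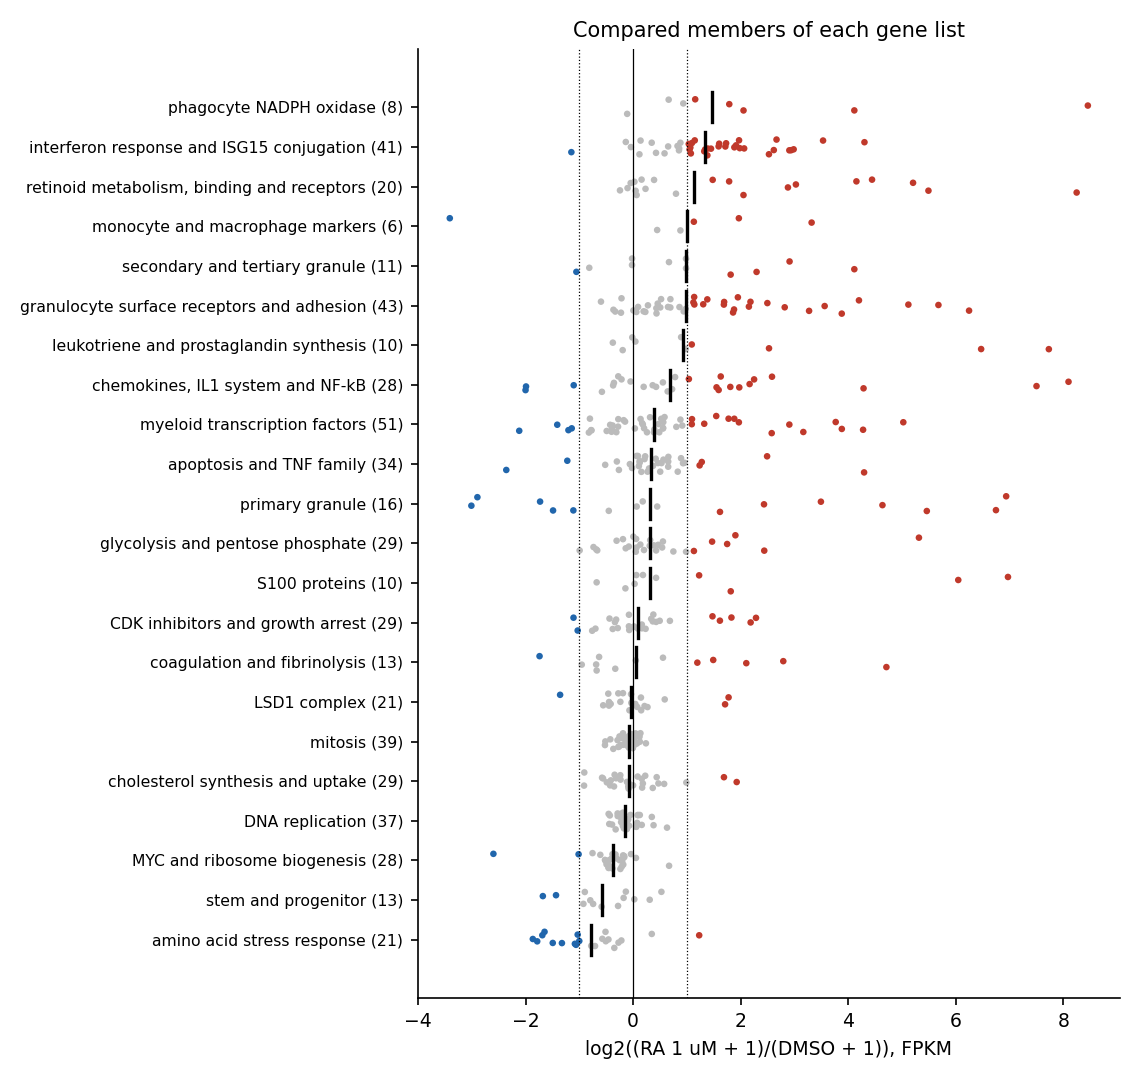
Log2 difference between the RA 1 uM and DMSO libraries of every compared gene of the 22 pathway lists, with the number of compared genes in brackets and lists ordered by their median (black bar). Dotted lines mark 2-fold, red points are genes higher and blue points genes lower with RA 1 uM, and the vertical scatter within a list has no meaning. The replication and mitosis lists hold no coloured point, and the amino acid stress list has most of its points left of 0.

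At 24 h the genes of the cell cycle were nearly level. None of 37 compared DNA replication genes and none of 39 compared mitosis genes passed 2-fold in either direction, and their median log2 differences were -0.16 and -0.08. Between like libraries those medians were larger in size, -0.42 and -0.67 for replication and -0.34 and -0.45 for mitosis. MKI67, a marker of cycling cells, had 80.7 FPKM with RA 1 uM and 81.0 FPKM with DMSO, and the replication clamp PCNA had 427 FPKM with RA 1 uM and 402 FPKM with DMSO. In the list of CDK inhibitors and growth arrest 5 of 29 (17.2%) were higher and 2 (6.90%) were lower. Over all compared genes these shares were 6.53% and 2.72%. The higher members include CCND1, a cyclin that drives entry into the cycle, at 26.0 FPKM with RA 1 uM and 8.70 FPKM with DMSO. PIM1, a kinase that promotes growth, was also higher, at 26.5 FPKM with RA 1 uM and 5.04 FPKM with DMSO. The arrest genes BTG2 and GADD45A were higher too, but the call of BTG2 is lost at 0.95 with a pseudocount of 5 FPKM. CDKN2D, the p19 inhibitor of CDK4 and CDK6, had 76.6 FPKM with RA 1 uM and 14.9 FPKM with DMSO, whereas CDKN1A and CDKN1B were within 2-fold. Most genes of MYC and ribosome biogenesis were within 2-fold. MYC had 157 FPKM with RA 1 uM and 319 FPKM with DMSO, a log2 difference of -1.01, just past the threshold, and its call is lost at -0.98 after centring on the median of all compared genes and at -0.995 with a pseudocount of 5 FPKM. TERT, the catalytic subunit of telomerase, had 1.93 FPKM with RA 1 uM and 16.7 FPKM with DMSO. These were the 2 lower ones (7.14%) of 28 compared genes of MYC and ribosome biogenesis, with 0 higher. Of the 28, 26 lay below 0, and the median of -0.38 was smaller in size than the -0.53 and -0.62 between like libraries.

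A group of amino acid genes was lower. Of 21 compared genes of the amino acid stress response 10 (47.6%) were lower and 1 (4.76%) was higher with RA 1 uM. The median log2 difference was -0.78, the lowest of the 22 pathway lists, against -0.28 and -0.45 between like libraries. PHGDH and PSAT1, enzymes of serine synthesis, had 36.4 and 17.9 FPKM with RA 1 uM, against 120 and 67.7 FPKM with DMSO. ASNS, asparagine synthetase, had 22.1 FPKM with RA 1 uM and 71.4 FPKM with DMSO. SLC7A5, a carrier of large neutral amino acids, had 47.7 FPKM with RA 1 uM and 166 FPKM with DMSO. ASS1, which makes argininosuccinate and is in no list, had 27.3 FPKM with RA 1 uM and 144 FPKM with DMSO. The 1 higher gene of that list was WARS1, the tryptophan tRNA ligase, which is also an interferon-inducible gene.

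Sugar metabolism differed at particular steps. Of 29 compared genes of glycolysis and the pentose phosphate pathway 6 (20.7%) were higher and 0 were lower. Over all compared genes these shares were 6.53% and 2.72%. SLC2A5, a fructose carrier, had 390.1 FPKM with RA 1 uM and 8.82 FPKM with DMSO. PGD, an NADPH-yielding enzyme of the pentose phosphate pathway, had 670.2 FPKM with RA 1 uM and 123 FPKM with DMSO. TKT, transketolase, had 1238 FPKM with RA 1 uM and 330.4 FPKM with DMSO, and PKM, pyruvate kinase, had 1243 FPKM with RA 1 uM and 369 FPKM with DMSO. The hexokinases HK1 and HK2 and the enolase ENO2 had negative log2 differences within 2-fold. In cholesterol metabolism 2 of 29 compared genes (6.90%) were higher and 0 were lower, a share near the 6.53% over all compared genes. They were the exporter ABCA1 and SREBF1, the lipogenic transcription factor, both also targets of LXR receptors.

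Both directions were seen among survival and clotting genes. BCL2, the anti-apoptotic founder of its family, had 2.60 FPKM with RA 1 uM and 17.5 FPKM with DMSO, whereas its relative BCL2A1 had 157 FPKM with RA 1 uM and 7.04 FPKM with DMSO. Of 34 compared genes of apoptosis and the TNF family 4 (11.8%) were higher and 2 (5.88%) were lower, against 6.53% and 2.72% of all compared genes. Promyelocytic leukaemia is known for bleeding, and of 13 compared genes of coagulation and fibrinolysis 5 (38.5%) were higher and 1 (7.69%) was lower. THBD, thrombomodulin, an anticoagulant receptor, had 59.3 FPKM with RA 1 uM and 1.303 FPKM with DMSO. ANXA2, which assembles plasmin formation at the cell surface, had 8.84 FPKM with RA 1 uM and 31.9 FPKM with DMSO. F3, tissue factor, had 5.82 FPKM with RA 1 uM and 9.56 FPKM with DMSO, within 2-fold.

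The genes with the lowest values relative to DMSO were few and named ones. CYTL1, a small secreted protein of haematopoietic progenitors (chr4:5065844-5072100), had 9.03 FPKM with RA 1 uM and 200.5 FPKM with DMSO, a log2 difference of -4.33. That was the most negative of all compared genes at a pseudocount of 1 FPKM, whereas at 0.1 FPKM it was -4.46, against -5.08 for STAB1 and -5.64 for LYPD6B, a gene with 0.016 FPKM with RA 1 uM and 5.68 FPKM with DMSO. For CYTL1 like libraries differed by up to 1.67. VIM, the intermediate filament vimentin, had 42.7 FPKM with RA 1 uM and 593 FPKM with DMSO. STAB1, a scavenger receptor of macrophages, had 0.272 FPKM with RA 1 uM and 12.5 FPKM with DMSO, in a row whose listed locus also holds NT5DC2. HDC, which makes histamine, had 6.94 FPKM with RA 1 uM and 58.4 FPKM with DMSO. IGFBP4, a binding protein of insulin-like growth factors, had 15.5 FPKM with RA 1 uM and 87.0 FPKM with DMSO. Of 13 compared stem and progenitor genes 2 (15.4%) were lower and 0 were higher, against 2.72% and 6.53% of all compared genes. The lower ones were WT1 and HGF. WT1, a zinc finger gene expressed in leukaemias, had 11.2 FPKM with RA 1 uM and 31.9 FPKM with DMSO. The growth factor HGF had 5.87 FPKM with RA 1 uM and 21.0 FPKM with DMSO.

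Of the called genes 505 higher and 228 lower ones were in none of the lists. The highest of these was FGR, a SRC family kinase of neutrophils and monocytes, with 256 FPKM with RA 1 uM and 0.689 FPKM with DMSO. G0S2, an inhibitor of the lipase ATGL, had 718 FPKM with RA 1 uM and 6.95 FPKM with DMSO. ASB2, a ubiquitin ligase subunit known as an RA response gene of this leukaemia, had 89.1 FPKM with RA 1 uM and 0.376 FPKM with DMSO. PADI4, the deiminase that citrullinates histones in neutrophil extracellular traps, had 35.4 FPKM with RA 1 uM and 0.423 FPKM with DMSO, and PADI2 had 79.2 FPKM with RA 1 uM and 1.06 FPKM with DMSO. PRAM1, an adaptor described as regulated by RA and by the fusion, had 298 FPKM with RA 1 uM and 7.18 FPKM with DMSO. LRG1, a glycoprotein of neutrophil granules, had 183 FPKM with RA 1 uM and 3.87 FPKM with DMSO. FBP1, the gluconeogenic fructose bisphosphatase, had 75.7 FPKM with RA 1 uM and 0.813 FPKM with DMSO. Among genes of at least 20 FPKM in either library, the lowest outside the lists, beside CYTL1, IGFBP4 and ASS1, include TENT5C, a poly(A) polymerase, with 4.23 FPKM with RA 1 uM and 23.9 FPKM with DMSO, and the potassium channel KCNH2, with 5.88 FPKM with RA 1 uM and 24.5 FPKM with DMSO.

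Markers of other cell types were checked beside these results. Erythroid and megakaryocyte markers were near absent, with summed levels of 3.96 FPKM and 11.1 FPKM with RA 1 uM, against 3.18 FPKM and 8.11 FPKM with DMSO. The haemoglobin genes HBA1, HBA2, HBB and HBG1 and the platelet genes PF4, PPBP and GP9 were listed at 0 in both libraries. Eosinophil, basophil and mast cell markers summed to 519 FPKM with RA 1 uM and 1397 FPKM with DMSO. PRG2, the eosinophil major basic protein, made up most of that sum, with 472 FPKM with RA 1 uM and 1294 FPKM with DMSO. Of 8 compared genes 2 (25.0%) were higher and 3 (37.5%), PRG2, EPX and HDC, were lower. The higher ones were CCR3, at 4.61 FPKM with RA 1 uM and 0.073 FPKM with DMSO, and CLC, at 4.51 FPKM with RA 1 uM and 0.084 FPKM with DMSO. Both higher calls are lost with a pseudocount of 5 FPKM, at 0.92 and 0.90. Lymphoid markers summed to 256 FPKM with RA 1 uM and 144 FPKM with DMSO, with 3 of 5 compared genes higher and 1 lower. CD79A, a B cell receptor chain, had 55.2 FPKM with RA 1 uM and 1.62 FPKM with DMSO. Its partner chain CD79B was the lower one, with 2.74 FPKM with RA 1 uM and 8.65 FPKM with DMSO. The call of CD79B is lost at -0.82 with a pseudocount of 5 FPKM. The B cell gene MS4A1 and the T cell gene CD5 were listed at 0 in both. Among monocyte and macrophage markers 12 of 22 were under 1 FPKM in both libraries. Of the 6 compared 3 (50.0%) were higher and 1 (16.7%) was lower. The fibroblast and epithelial list summed to 81.3 FPKM with RA 1 uM and 629 FPKM with DMSO, almost all of it VIM, with DCN, LUM, CDH1 and KRT19 at 0 in both. The part of these markers in the differences above was not tested.

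The library at 0.01 uM RA gives an intermediate dose, and it shares the DMSO library with the comparison above. Some genes stood well apart between the doses. CYP26A1 had 0.040 FPKM with DMSO, 2.49 FPKM at 0.01 uM and 37.4 FPKM at 1 uM. PTGES was listed at 0 with DMSO and had 5.16 FPKM at 0.01 uM and 87.8 FPKM at 1 uM. RARB had 0.156 FPKM with DMSO, 1.07 FPKM at 0.01 uM and 7.51 FPKM at 1 uM. TGM2 had 0.061, 78.5 and 322 FPKM in the same order. A few genes were near their DMSO level at the lower dose. The lipid exporter ABCA1 had 3.63 FPKM with DMSO, 3.03 FPKM at 0.01 uM and 13.9 FPKM at 1 uM, and THBS1, thrombospondin, had 0.611, 1.16 and 10.2 FPKM in that order.

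Other genes stood near the same level at both doses. NCF1 had 929 FPKM at 0.01 uM and 1305 FPKM at 1 uM, ALOX5AP had 773 FPKM at 0.01 uM and 808 FPKM at 1 uM, and CD52 had 363 FPKM at 0.01 uM and 373 FPKM at 1 uM. The lower genes did so as well, CYTL1 with 7.71 FPKM at 0.01 uM and 9.03 FPKM at 1 uM and CST7 with 11.97 FPKM at 0.01 uM and 10.7 FPKM at 1 uM. Another pattern had its highest level at the low dose. CEBPB had 5.36 FPKM with DMSO, 172 FPKM at 0.01 uM and 85.6 FPKM at 1 uM. ID1 had 0.226, 52.0 and 22.8 FPKM in that order, ID2 had 1.799, 86.6 and 40.3 FPKM, and RARG had 0.135, 7.42 and 2.17 FPKM. LFNG, a glycosyltransferase that modifies Notch, had 2.37, 168 and 73.0 FPKM. With 1 library per dose, none of these differences between doses could be tested.

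**Figure D4:**
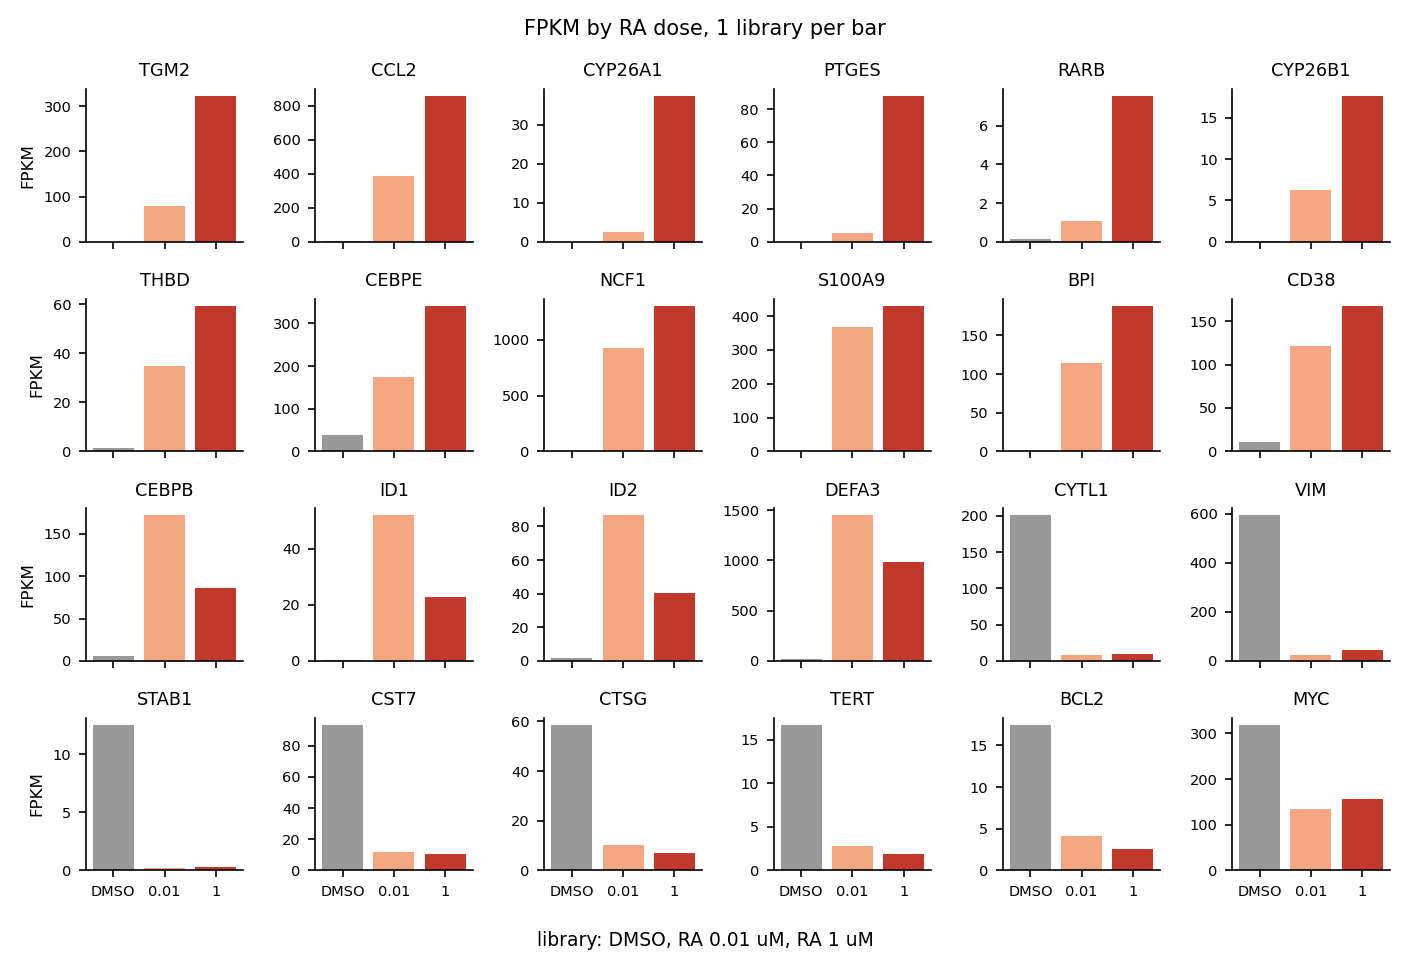
FPKM of 24 genes in the DMSO, RA 0.01 uM and RA 1 uM libraries, 1 library per bar and each panel with its own vertical axis from 0. CYP26A1, PTGES and RARB are far higher at 1 uM than at 0.01 uM, NCF1 and S100A9 differ less between the doses, CEBPB, ID1 and ID2 are highest at 0.01 uM, and CYTL1 and VIM are low at both doses.

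With the LSD1 inhibitor MC_2580 alone, TGM2 and NCF1 stayed far below their RA levels. TGM2 had 322 FPKM with RA 1 uM, 0.132 FPKM with MC_2580 and 0.061 FPKM with DMSO. NCF1 had 1305 FPKM with RA 1 uM, 5.48 FPKM with MC_2580 and 2.72 FPKM with DMSO. ITGAM and S100A9 stood above DMSO with MC_2580 alone, at 13.9 and 17.1 FPKM, against 2.68 and 2.44 FPKM with DMSO. DEFA4 stood below it, at 0.492 FPKM with MC_2580 and 2.18 FPKM with DMSO. Some genes were lower with RA 1 uM than with MC_2580 and RA at 0.01 uM combined. ICAM1 had 594 FPKM with RA 1 uM and 1854 FPKM in that combination, G0S2 had 718 FPKM with RA 1 uM and 1986 FPKM in the combination, and S100A8 had 126 FPKM with RA 1 uM and 419.5 FPKM in the combination. Others were higher with RA 1 uM, such as CYP26A1 at 37.4 FPKM with RA 1 uM and 14.2 FPKM in the combination, and DEFA4 at 389 FPKM with RA 1 uM and 72.7 FPKM in the combination. LYZ was on opposite sides of DMSO, with 12.98 FPKM with RA 1 uM, 653 FPKM in the combination and 45.3 FPKM with DMSO.

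How these differences compare with those between like libraries is shown gene by gene. NCF1 differed by 8.46 on the log2 scale with RA 1 uM and by at most 0.37 between like libraries. VIM differed by -3.76 with RA 1 uM and by at most 0.76 between like libraries. BCL2A1 had a log2 difference of 4.30 with RA 1 uM and up to 2.16 between like libraries. For CXCL10, a chemokine called higher at 7.32 FPKM with RA 1 uM and 1.84 FPKM with DMSO, the like-library difference of 2.36 was larger than the 1.55 with RA 1 uM. The call of CXCL10 is also lost at 0.85 with a pseudocount of 5 FPKM.

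**Figure D5:**
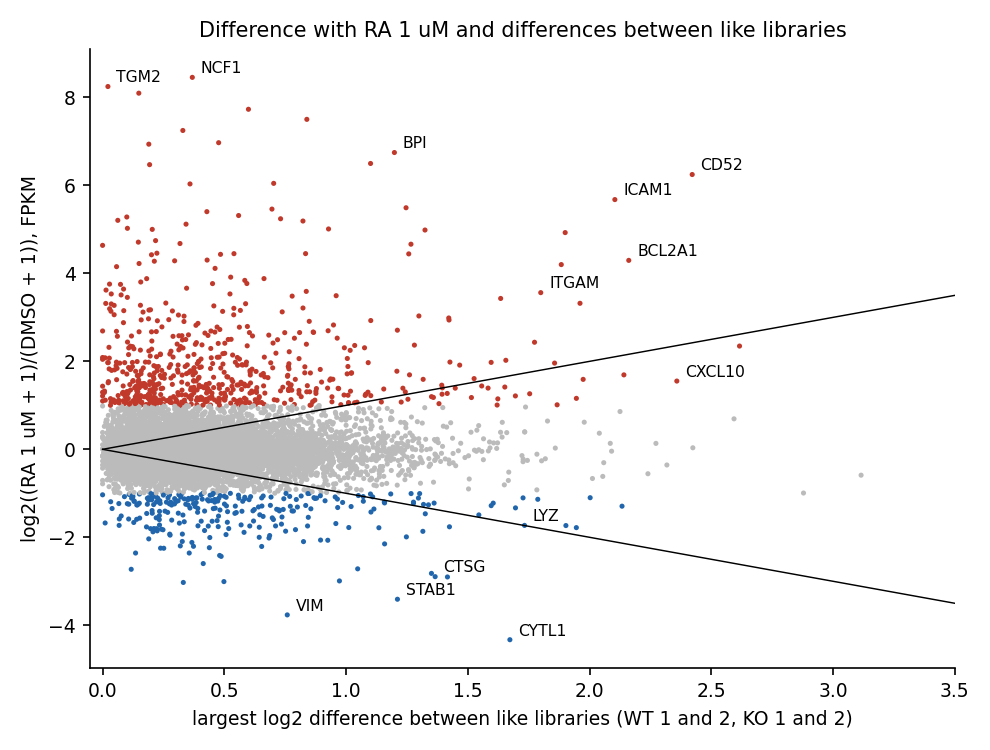
Log2 difference between RA 1 uM and DMSO (vertical axis) against the largest log2 difference between WT 1 and WT 2 or KO 1 and KO 2 (horizontal axis) for each compared gene, with red and blue for genes at least 2-fold higher or lower. Black lines mark equal size, and 1 compared gene lies beyond the right end of the axis. Of the called genes 617 higher and 246 lower ones lie outside the lines, and CXCL10 and LYZ lie inside or on them.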

How the data were processed

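RNA was sequenced from NB4 cells, per the labels after Trizol extraction and TruSeq library synthesis. Per the file headers and values, the authors deposited FPKM in the Cuffdiff layout, with their own significance call for each pair of libraries. Build hg18 is named in the submitters' processing notes, as are the tools TopHat2 2.0.10, TopHat 1.3.1, Cuffdiff, Cufflinks and CASAVA 1.8. The annotation and the scaling of libraries to each other are not stated there. In the knockout table the authors had added 0.001 FPKM to each value, which was taken off.

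Values listed at 0 in this pair but above 0 in another were replaced by the value above 0 in 38 cases. Symbols were matched to RefSeq names and synonyms on the same chromosome, which gave 17493 protein-coding genes with 1 locus, 469 of them with a failed status. Listed starts were taken to count from 0, so 1 was added. That was read from 417 miRNA loci with a RefSeq hairpin. End minus start equalled the hairpin length at 48.9% of them, and end minus start plus 1 did so at 0%. The remaining loci matched neither count. Of the compared genes, 3041 share their listed locus with another row, among them STAB1, CD52, ITGAM, RARB, HDC and ASS1, so a coordinate is that of the locus. Log2 differences used a pseudocount of 1 FPKM, which understates the change of low genes. Precision is limited by having 1 library a side, and depth in reads is unknown.

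The members, the 22 pathway lists and the 6 marker lists were chosen with earlier results of these data known. Named genes were selected from those given by a rule, which were the 15 highest and 15 lowest of at least 5 FPKM, list members past 2-fold and the most abundant within it, and the 15 highest and lowest outside the lists of at least 20 FPKM. Some genes within 2-fold or under 1 FPKM, and the genes set side by side across doses and with MC_2580, were picked after their values were seen. Of the list entries, 25 had a failed status and 25 no matching locus. The counting was tested on simulated data. Values were computed in Python 3.11.15 (numpy 2.4.6, pandas 2.3.3) and plotted with matplotlib 3.10.9.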

Additional observations from a re-analysis of the deposited data

How the results depend on the processing

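The count of higher genes at 2-fold, 643, was 382 with a pseudocount of 5 FPKM and 206 at a 4-fold threshold, and the count of lower genes, 268, was 103 and 32 in those settings. A pseudocount of 0.1 FPKM gave 424 lower genes, and counting all loci gave 558. Under the other settings run, the counts stayed within 1.5 times these: 793 higher genes with a pseudocount of 0.1 FPKM, 904 over all loci, 524 higher and 191 lower at a minimum of 5 FPKM, and 666 higher and 250 lower after centring on the median. Without genes listed at 0 in either library 632 were higher and 267 lower, and beyond each gene's like-library difference 617 and 246, both chosen after seeing the data. No list median, and no gene past 2-fold that the naming rule gave, changed sign under the pseudocounts or centring, but 41 of 153 higher and 16 of 61 lower ones were within 2-fold at a pseudocount of 5 FPKM, and 2 lower ones after centring. A pseudocount of 5 FPKM lowered the median of the retinoid genes to 0.59, of the interferon genes to 0.86, of the surface receptors to 0.52 and of the secondary granule genes to 0.27, and brought that of the amino acid stress genes to -0.48. A pseudocount of 0.1 FPKM gave the secondary granule genes 2.15. No paired analysis was possible because each treatment has 1 library, and for the same reason no library could be left out.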

Other observations

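Several gene families that were no list of their own were chosen after their values were seen. Their counts can be set beside the 6.53% higher and 2.72% lower of all compared genes. All 4 compared genes of the CD300 family, paired receptors of myeloid cells, were higher with RA 1 uM, with a median log2 difference of 2.54. CD300LB had 11.1 FPKM with RA 1 uM and 0.339 FPKM with DMSO. CD300A had 96.3 FPKM with RA 1 uM and 18.1 FPKM with DMSO, but its like-library difference of 2.62 was larger than its log2 difference of 2.35. Of 8 compared adhesion G protein-coupled receptors 4 were higher and 1 was lower, with ADGRG3 at 142 FPKM with RA 1 uM and 3.70 FPKM with DMSO. Of 5 compared SIGLEC genes, receptors for sialic acid, 3 were higher, among them SIGLEC12 at 26.2 FPKM with RA 1 uM and 3.20 FPKM with DMSO.

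Cathepsins, the lysosomal proteases, had 3 of 12 compared genes higher and 3 lower. CTSD had 411 FPKM with RA 1 uM and 61.3 FPKM with DMSO, and the lower ones include CTSG of the granule list. Of the HOX genes, HOXA10 had 21.3 FPKM with RA 1 uM and 21.0 FPKM with DMSO, and HOXD13 had 27.0 FPKM with RA 1 uM and 28.2 FPKM with DMSO.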
